A study of Mus musculus with 6 samples.

Results

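The 27 genes described here make, sense and move cholesterol: 17 encode enzymes of the synthesis pathway, 5 encode the sterol-sensing system that controls it, and 5 encode transporters and carriers. They were taken by gene symbol, not by a cutoff on their values, from a list made with earlier results of these data known. All 27 were found among the 19618 genes of the table. The list was drawn up because sterols bind Smo and Ptch1, which belong to the Hedgehog pathway. Despite the word uptake in the list's working name, no lipoprotein receptor is among the 27, so those receptors are given from a separate list.

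RNA was sequenced from keratinocytes of tail skin, the main cells of the epidermis, taken from mice aged 4 months. The knockout group (3 libraries) carried K14cre, a Cre transgene driven by the keratin 14 promoter and so active in basal keratinocytes and their progeny, and was homozygous for the Gpr161Flox allele. The control group (3 libraries) is labelled without K14cre: 1 control was homozygous for Gpr161Flox and 2 were heterozygous, so all 6 libraries came from carriers of the floxed allele and only the knockout group carried Cre. Gpr161 is a ciliary receptor that restrains Hedgehog signalling. The labels give no sex and do not tie a library in the count table to a numbered sample, so libraries are named by the tag in the table: the knockout libraries are DE679, DE685 and DE688, and the controls are DE680, DE684 and DE689. It is not known which control was the homozygous one. The labels do not say outright that each library came from its own mouse. The p-values thus rest on variation between libraries, which may not be variation between mice.

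Cholesterol is built from acetyl-CoA. The mevalonate pathway makes isoprenoid units, squalene is assembled from them, and lanosterol is then trimmed stepwise to cholesterol. When membranes of the endoplasmic reticulum are poor in cholesterol, Scap escorts the sterol regulatory element-binding proteins (SREBPs), transcription factors encoded by Srebf1 and Srebf2, to the Golgi, where they are cleaved and released. When sterols are plentiful, the Insig proteins hold Scap back. The active factors bind sterol regulatory elements and often act with NF-Y, which binds CCAAT boxes. Liver X receptors, activated by oxysterols, raise the export pumps Abca1 and Abcg1. In skin, the epidermis makes much of its own cholesterol for the barrier, and sterols are ligands of Smo.

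Library totals ran from 17157864 (DE685) to 25344399 estimated counts, and the 27 genes took 0.445% to 0.567% of them. Levels below are CPM, which are counts rescaled to a common library total, with TMM (trimmed mean of M values) factors, and changes are log2 of knockout over control from edgeR's quasi-likelihood fit. Adjusted p-values are Benjamini-Hochberg values over the 15422 genes that passed the filter on low counts, and a gene is called changed at an adjusted p under 0.05. All 27 genes passed that filter, the lowest count in any library being 256, for Tm7sf2. The basal keratinocyte keratins Krt5 (14800 ± 903 CPM in the knockout, SD, n = 3) and Krt14 (10392 ± 976 CPM) were abundant in these cells labelled keratinocytes. DE685 in the knockout and DE684 in the control carried 3311 and 5291 counts of Y-linked transcripts and at most 6 counts of Xist. The other 4 libraries had at most 3 Y-linked counts and at least 17265 Xist counts, so each genotype held 1 library with Y-linked transcripts and 2 without.

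Promoter windows of the genes that the results turn on are shown first, because control of this pathway is exerted largely at these promoters. Each window is RefSeq sequence on GRCm38.p6 and runs from 250 bases before to 50 bases after the start site, 5′ to 3′ on the gene's strand. Capitals mark matches, on either strand, to the NF-Y box (CCAAT, or ATTGG on the other strand) and to a sterol regulatory element core spelled TCACNCCAC (GTGGNGTGA on the other strand). No position was shared between the 2 motifs in the windows shown. The Hmgcs1 window, chr13:119690101-119690400 on the plus strand, was the only one among the members with the sterol element core, 137 bases before the start, and it also held 4 NF-Y boxes:
Hmgcs1: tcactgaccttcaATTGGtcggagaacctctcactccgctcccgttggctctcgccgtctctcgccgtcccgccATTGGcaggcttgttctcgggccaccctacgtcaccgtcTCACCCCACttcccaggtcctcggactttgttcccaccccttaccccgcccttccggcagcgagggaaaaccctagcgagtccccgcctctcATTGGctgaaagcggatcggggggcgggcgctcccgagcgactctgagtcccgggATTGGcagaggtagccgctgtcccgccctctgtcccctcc
The Idi1 window, chr13:8885356-8885655 on the plus strand, is shown because Idi1 had the largest negative change in the mevalonate part of the pathway:
Idi1: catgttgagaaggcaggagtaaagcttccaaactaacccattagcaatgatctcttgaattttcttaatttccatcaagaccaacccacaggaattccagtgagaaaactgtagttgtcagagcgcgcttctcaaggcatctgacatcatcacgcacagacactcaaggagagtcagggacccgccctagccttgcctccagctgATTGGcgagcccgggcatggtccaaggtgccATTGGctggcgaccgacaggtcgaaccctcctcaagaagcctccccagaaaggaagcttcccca
The Hsd17b7 window, chr1:169969156-169969455 on the minus strand, belongs to the member that differed most between libraries:
Hsd17b7: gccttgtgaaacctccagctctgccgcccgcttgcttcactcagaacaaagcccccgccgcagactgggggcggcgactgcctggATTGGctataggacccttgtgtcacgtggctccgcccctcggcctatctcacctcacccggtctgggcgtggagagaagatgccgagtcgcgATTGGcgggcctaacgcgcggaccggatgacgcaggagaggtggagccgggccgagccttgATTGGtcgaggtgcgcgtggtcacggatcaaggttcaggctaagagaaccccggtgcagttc
The Sc5d window, chr9:42264251-42264550 on the minus strand, and the Insig1 window, chr5:28071162-28071461 on the plus strand, belong to the members whose genotype groups did not overlap:
Sc5d: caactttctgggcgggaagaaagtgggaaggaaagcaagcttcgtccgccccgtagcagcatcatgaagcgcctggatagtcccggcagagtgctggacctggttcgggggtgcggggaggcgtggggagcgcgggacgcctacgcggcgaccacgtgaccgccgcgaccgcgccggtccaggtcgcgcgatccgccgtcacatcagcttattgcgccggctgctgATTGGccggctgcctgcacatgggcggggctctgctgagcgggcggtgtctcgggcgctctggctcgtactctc
Insig1: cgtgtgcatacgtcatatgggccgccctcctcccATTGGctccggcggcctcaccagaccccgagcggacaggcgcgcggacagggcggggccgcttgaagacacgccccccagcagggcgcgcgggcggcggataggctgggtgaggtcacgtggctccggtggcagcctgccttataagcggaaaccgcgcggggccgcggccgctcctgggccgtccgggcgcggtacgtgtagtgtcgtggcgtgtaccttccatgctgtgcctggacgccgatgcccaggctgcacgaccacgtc

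The promoter table matched 21 of the 27 members, with 29 windows. Fdps, Fdft1, Sqle, Stard4, Abcg1 and Npc1 had no entry. An NF-Y box was present in 20 of the 29 windows (69.0%), against 12289 of 32851 windows over all genes (37.4%). All 14 matched synthesis enzymes had a window with one, in 14 of their 17 windows (82.4%). The sterol element core was present in 1 of the 29 windows (3.45%) and in 408 of all windows (1.24%). These are letter matches, not binding sites, and other spellings of the sterol element were not searched.

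None of the 27 genes was called changed between knockout and control by edgeR, against 1.60% of all genes tested (247 genes, 192 higher and 55 lower). Of the 27, 20 had a log2 change below 0 and 7 above, with a median of -0.10. Over all genes the median was -0.0036, and 50.7% lay below 0. At an unadjusted p under 0.05 there were 2 members, Sc5d and Insig1, against 19.0% of all genes. DESeq2 called 1 member, Sc5d, where it called 5.66% of all genes, and limma-voom called 0 members. The groups failed to overlap for the same 2 members, where 25.6% of all genes did so. For 25 of the 27 members the 95% interval of the log2 change held 0. It was narrowest for Scap (-0.14 to 0.12) and widest for Hsd17b7 (-1.11 to 0.30). In bulk RNA, fewer cells of a type and less RNA per cell cannot be told apart.

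**Figure D1:**
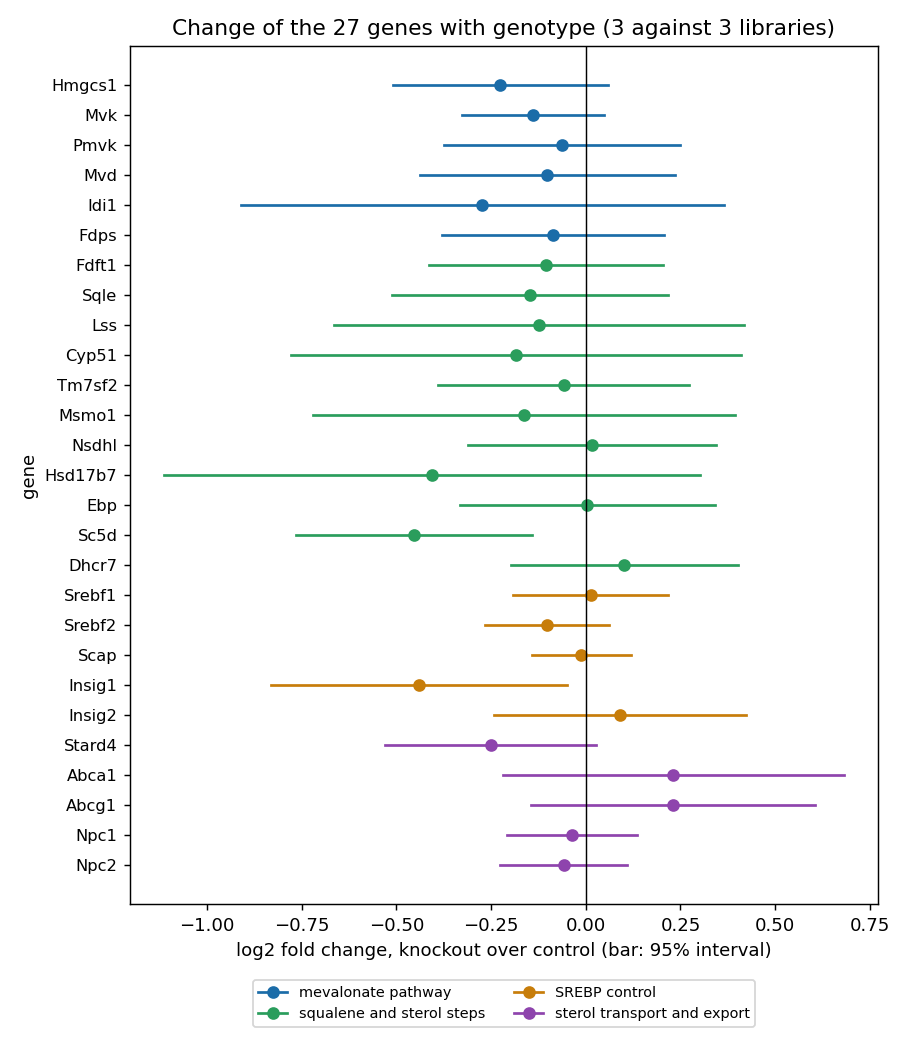
Log2 change of knockout over control for each of the 27 genes, with 95% intervals from the edgeR fit, ordered by role in the pathway. Most points lie left of 0, and the intervals of Sc5d and Insig1 are the ones that leave 0 out.

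The 6 genes of the mevalonate part all had negative estimates, from -0.27 to -0.06 with a median of -0.12, and none was called. Hmgcs1 encodes HMG-CoA synthase, an early enzyme of the pathway. Its level was 729, 905 and 712 CPM in the knockout libraries DE679, DE685 and DE688, and 1008, 949 and 786 CPM in the control libraries DE680, DE684 and DE689. The groups overlapped through DE685, which lay above the control DE689. The means were 782 ± 107 and 914 ± 115 CPM (SD, n = 3 each), and the log2 change was -0.22 with an SE of 0.12 (edgeR adjusted p = 0.360).

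Idi1, isopentenyl diphosphate isomerase, which interconverts the isoprenoid building blocks, had 293, 549 and 307 CPM in the knockout and 452, 593 and 343 CPM in the control. The highest library of each group was the one with Y-linked transcripts, DE685 and DE684. The log2 change was -0.27 (SE 0.27), with an interval from -0.91 to 0.36 and an edgeR adjusted p of 0.628. Mvk, mevalonate kinase, had 83.2, 88.0 and 88.7 CPM in the knockout and 105, 95.6 and 85.6 CPM in the control. Here the knockout libraries were close together and DE689 fell among them, and the log2 change was -0.14 (interval -0.33 to 0.05, edgeR adjusted p = 0.390). The kinase gene Pmvk (49.8 ± 4.51 against 51.9 ± 9.31 CPM), the decarboxylase gene Mvd (102 ± 16.1 against 109 ± 17.95 CPM) and Fdps (214 ± 24.4 against 227 ± 35.3 CPM), which makes farnesyl diphosphate, gave log2 changes of -0.06, -0.10 and -0.09. Their edgeR adjusted p-values ran from 0.747 to 0.842. Fdps shares 26.7% of its exon bases with the gene model Gm43738 on the same strand, so the authors' counting could have split its reads.

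Of the 11 enzymes from squalene to cholesterol, 8 had negative estimates and 3 positive ones, with a median of -0.12, and none was called. Sc5d, lathosterol oxidase, a late enzyme of the pathway on chromosome 9, had the most negative estimate of the 27. Its level was 41.6, 35.9 and 43.4 CPM in the knockout and 65.9, 46.4 and 53.3 CPM in the control. Every knockout library lay below every control library, with the nearest pair being DE688 and DE684. The means were 40.3 ± 3.92 and 55.2 ± 9.88 CPM, giving a log2 change of -0.45 (SE 0.13, interval -0.76 to -0.14). This missed the threshold in edgeR (adjusted p = 0.141) and passed it in DESeq2 (adjusted p = 0.0320). With the presence of Y-linked transcripts as a second term, the edgeR adjusted p was 0.0511, and over all alternatives it ran from 0.0320 to 0.339.

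Hsd17b7, which reduces the ketone left after demethylation of the sterol ring, varied most between libraries. It had 89.0, 177 and 99.2 CPM in the knockout and 140, 224 and 120 CPM in the control. DE685 and DE684 were again the highest of their groups, and the groups overlapped because DE685 exceeded DE680 and DE689. The log2 change was -0.41 (SE 0.31, edgeR adjusted p = 0.507). With Y-linked transcripts as a second term the estimate was -0.42 and the edgeR adjusted p was 0.0418, so this gene was called lower in the knockout in that fit, which called 2.65% of all genes, and in no other one run. DE685 and DE684 were the only libraries with those transcripts, and that split was read from these same data. Hsd17b7 was also the member with the largest difference by it (log2 0.85).

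Lss, which closes squalene epoxide into lanosterol, had 168, 276 and 183 CPM in the knockout and 220, 292 and 170 CPM in the control. Cyp51, the lanosterol demethylase, had 134, 244 and 155 CPM against 221, 241 and 143 CPM. Msmo1, the methylsterol oxidase that follows, had 272, 460 and 269 CPM against 383, 454 and 283 CPM. All 3 genes had 1 low library in the control (DE689) and 1 high library in the knockout (DE685), and their log2 changes were -0.12, -0.18 and -0.16 with edgeR adjusted p-values of 0.813, 0.736 and 0.756. Sqle, squalene epoxidase, a flux-controlling step, had 160, 215 and 171 CPM in the knockout and 242, 198 and 164 CPM in the control, a log2 change of -0.15 (interval -0.51 to 0.22, edgeR adjusted p = 0.649). Fdft1, squalene synthase, had 189 ± 24.3 against 204 ± 33.7 CPM and a log2 change of -0.10 (edgeR adjusted p = 0.707).

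Other sterol enzymes had estimates close to 0. The sterol dehydrogenase gene Nsdhl averaged 63.9 ± 6.54 against 63.2 ± 11.9 CPM (knockout first), a log2 change of 0.02. Ebp, the sterol isomerase, had 52.8 ± 6.08 against 52.6 ± 9.81 CPM, a log2 change of 0.0045. Tm7sf2, a sterol reductase, had 13.1 ± 1.52 against 13.6 ± 1.97 CPM, a log2 change of -0.06, and shares 12.1% of its exon bases with Vps51 on the same strand. Dhcr7, the reductase that makes cholesterol in the last step of one branch, had the most positive estimate among the enzymes. It had 174, 144 and 196 CPM in the knockout and 184, 143 and 152 CPM in the control, a log2 change of 0.10 (interval -0.20 to 0.40, edgeR adjusted p = 0.707). In both groups the library with Y-linked transcripts was the lowest for Dhcr7, the opposite of Idi1, Lss and Hsd17b7.

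**Figure D2:**
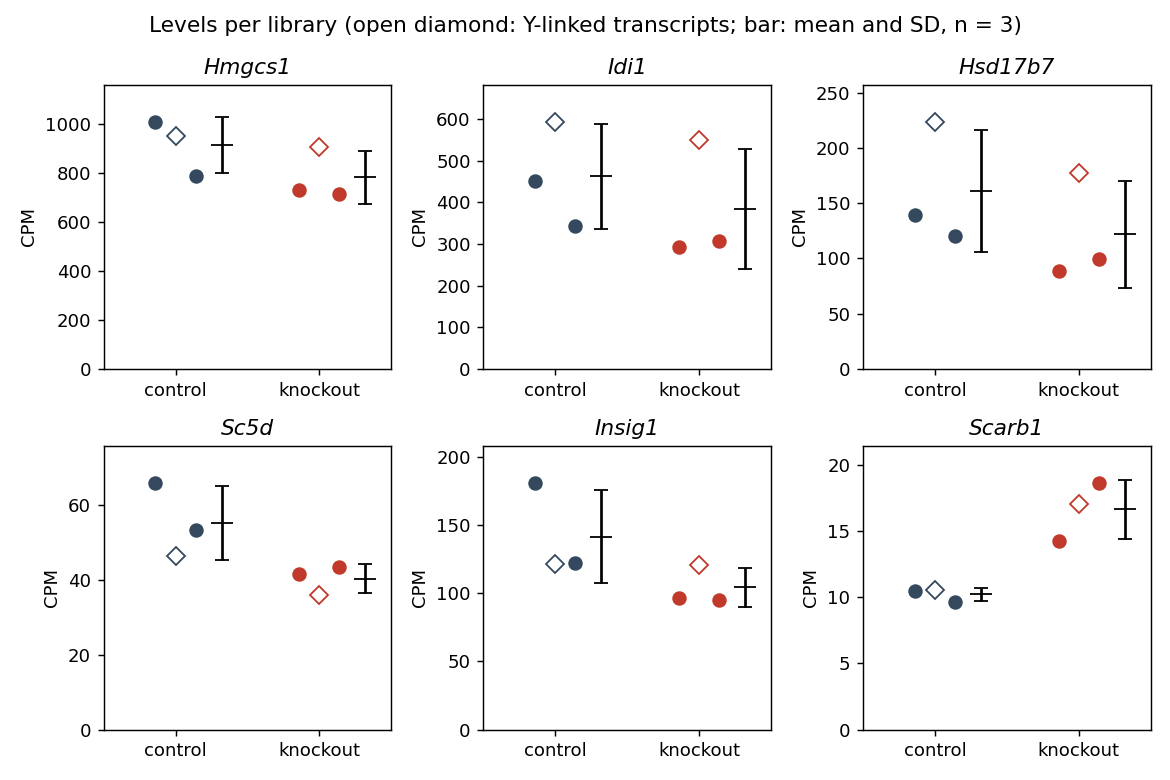
Levels in CPM of 5 members and of the lipoprotein receptor gene Scarb1 in each library by genotype; open diamonds are the libraries with Y-linked transcripts, and bars give the mean and SD (n = 3). For Hsd17b7 and Idi1 the diamond is the highest of its group in both genotypes, whereas for Sc5d the groups do not overlap.

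Of the 5 sterol-sensing genes, Srebf1, Srebf2 and Scap had log2 changes from -0.10 to 0.01. Srebf1, which encodes a factor best known for fatty acid genes, had 427, 445 and 481 CPM in the knockout and 426, 414 and 502 CPM in the control, a log2 change of 0.01 (interval -0.19 to 0.22, edgeR adjusted p = 0.956). Srebf2, which encodes the main factor for cholesterol genes, had 369, 412 and 406 CPM against 443, 397 and 433 CPM, a log2 change of -0.10 (interval -0.27 to 0.06, edgeR adjusted p = 0.472). Scap, the escort protein, stayed within 229 to 248 CPM over all 6 libraries, with a log2 change of -0.01 (edgeR adjusted p = 0.936). RNA levels of these genes do not report how much of the protein was cleaved.

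Insig1, a retention protein whose own gene is a target of the pathway, had 96.6, 120.9 and 95.3 CPM in the knockout and 180.9, 121.4 and 122.0 CPM in the control. The groups did not overlap, but DE685 came within 1 CPM of DE684, and the highest value was DE680. The means were 104 ± 14.4 and 141 ± 34.1 CPM, with a log2 change of -0.44 (SE 0.17, interval -0.83 to -0.05). It did not pass after adjustment (edgeR adjusted p = 0.220). Without DE680 the estimate was -0.23 (edgeR adjusted p = 0.329). Its paralogue Insig2 had 66.6, 61.5 and 72.2 CPM against 76.2, 50.003 and 62.1 CPM, a log2 change of 0.09 (edgeR adjusted p = 0.776).

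Among carriers and pumps none was called, and the estimates ran from -0.25 to 0.23. Stard4, a soluble sterol carrier and target of the pathway, had 88.7, 85.9 and 107 CPM in the knockout and 119, 93.9 and 122 CPM in the control. DE684 in the control lay below DE688 in the knockout, and the log2 change was -0.25 (interval -0.53 to 0.03, edgeR adjusted p = 0.303). The export pump Abca1 had 137, 163 and 110 CPM against 87.2, 143 and 119 CPM, a log2 change of 0.23 (interval -0.22 to 0.68, edgeR adjusted p = 0.556). Abcg1, the other pump, had 23.0, 19.7 and 22.8 CPM against 17.955, 14.7 and 23.1 CPM, also a log2 change of 0.23 (interval -0.14 to 0.61, edgeR adjusted p = 0.473). Both pumps had positive estimates, yet in each case the groups overlapped. Npc1 and Npc2, which pass cholesterol out of the lysosome, had 76.8 ± 2.34 against 78.7 ± 7.01 CPM and 102 ± 6.37 against 106 ± 6.88 CPM, with log2 changes of -0.04 and -0.06 (edgeR adjusted p = 0.829 and 0.701).

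Levels can be set side by side between genes only per length, so each was also divided by its exon length in kilobases. This length joined all annotated exons of the gene (4208 bases for Fdps, 10787 for Lss). It can exceed the length of a single transcript, so the order of the genes depends on the annotation. On this scale Hmgcs1 was the highest member, with 170.2 ± 23.3 CPM per kilobase in the knockout and 199 ± 25.1 in the control. Idi1 followed (109 ± 41.1 and 132 ± 35.8 CPM per kilobase), then Srebf1 (80.1 ± 4.90 and 79.4 ± 8.44 CPM per kilobase). Tm7sf2 and Abcg1 were the lowest in level, at 2.97 and 2.99 CPM per kilobase in the knockout. In every library Hmgcs1 lay above Idi1, and Idi1 lay above Srebf1. Idi1 and Srebf1 were closest in DE688, at 87.6 and 85.4 CPM per kilobase. Tm7sf2 lay below Abcg1 in DE679, DE688 and DE689 and above it in DE685, DE680 and DE684.

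**Figure D3:**
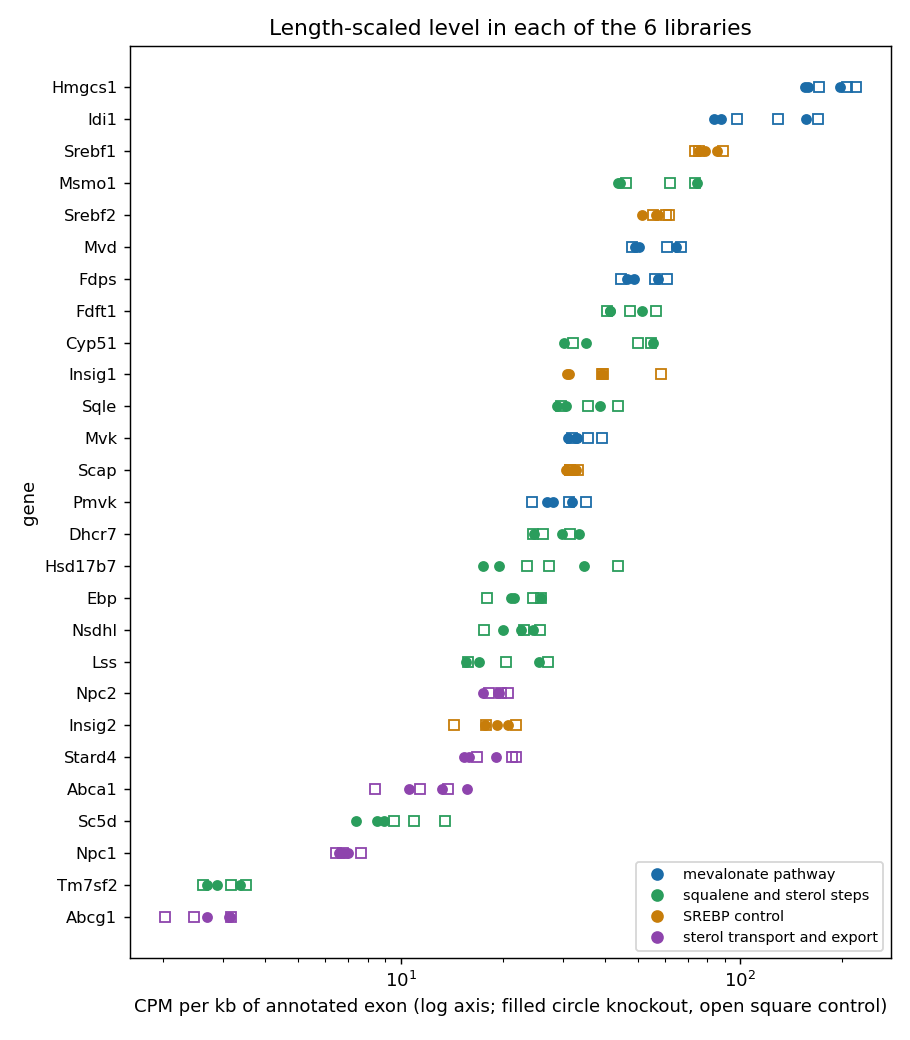
Length-scaled levels (CPM per kilobase of exon, log axis) of the 27 genes in each library (circles knockout, squares control), ordered by their mean. Hmgcs1 is at the top, and Tm7sf2 and Abcg1 at the bottom.

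The 17 enzymes tended to be high or low in the same libraries, and these libraries did not follow the genotypes. Summed over the 17, the level was 2777, 3873 and 2865 CPM in the knockout libraries DE679, DE685 and DE688, and 3837, 3988 and 2894 CPM in the control libraries DE680, DE684 and DE689. DE680, DE684 and DE685 were thus high and DE679, DE688 and DE689 low, and each genotype contributed to both sets. DE680 was the highest of the 6 libraries for 8 enzymes, DE684 for 5, DE685 for 3 and DE688 for 1. Within the knockout, DE685 was highest for 14 of 17, and within the control DE689 was lowest for 15 of 17. The other 10 members showed no such split in their median level. Against the gene's own mean, it lay between -0.04 and 0.07 on the log2 scale in every library. For the enzymes this median ran from -0.22 in DE689 to 0.21 in DE680. Single genes among the other 10 spread more widely, from -0.51 to 0.59 in DE680.

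**Figure D4:**
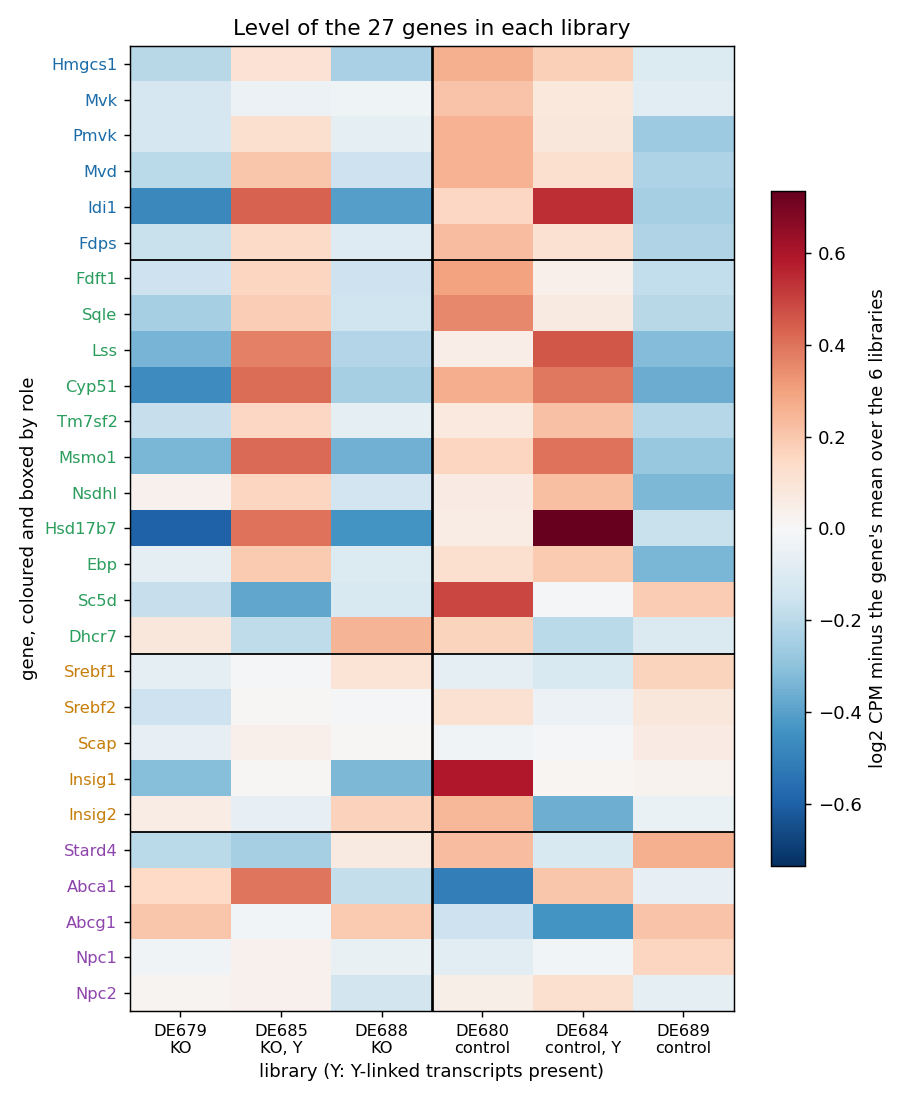
Level of each of the 27 genes in each of the 6 libraries as log2 CPM minus the gene's mean over libraries (red above, blue below), arranged by role. The enzyme rows are mostly above the mean in DE680, DE684 and DE685 and below it in DE679, DE688 and DE689.

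Leaving out single libraries moved the median change of the enzymes between -0.24 (without DE685) and -0.02 (without DE679), and the number of enzymes with a negative estimate between 9 (without DE680) and 16. No member was called in any of these 6 fits. Among the 4 libraries without Y-linked transcripts, 14 of 17 enzymes were lower in the knockout with a median difference of -0.19. Of these 4, only the control DE680 was high in summed enzymes (3837 CPM). The control DE689 (2894 CPM) lay near the knockouts DE679 and DE688 (2777 and 2865 CPM). The share of all genes lower in these 4 libraries was not computed. Between the 2 libraries with Y-linked transcripts, 8 of 17 were lower, with a median of 0.0014. The sign was the same in both settings for 9 of the 17. A term for the interaction of genotype with Y-linked transcripts, fitted with edgeR, was called for 0 members, with 0 at an unadjusted p under 0.05 and 0.9999 as the lowest adjusted p, and for 3 of all genes. Each genotype held a single library with Y-linked transcripts, so that test had little power and cannot decide whether the settings differ.

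The split by Y-linked transcripts was noticed in these values and then fitted to the same libraries, with genotype as a second term, so it is a description with few libraries (2 against 4). Of the 27 members, 1 was called higher in the libraries with Y-linked transcripts, where 0.182% of all genes were (28 of 71 called genes). This was Hsd17b7, with a mean of 201 against 112 CPM, 1.80-fold (log2 0.85, interval 0.66 to 1.04, edgeR adjusted p = 0.0152). At an unadjusted p under 0.05, 8 members were higher in these libraries, against 4.63% of genes, and 5 were lower (Sc5d, Dhcr7, Insig2, Stard4 and Abcg1), against 5.75%. A positive estimate was found for 20 of the 27, against 49.3% of genes. Both libraries with Y-linked transcripts lay above all 4 others for 9 members, against 6.93% of genes. These were Idi1, Lss, Cyp51, Tm7sf2, Msmo1, Nsdhl, Hsd17b7 and Ebp among the enzymes, and Abca1. Nsdhl and Ebp lie on the X chromosome, and the library sets compared also differed in Xist. Whether this bears on their levels was not tested.

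For Idi1 the means were 571 and 349 CPM (log2 0.73, interval 0.46 to 0.99), with an edgeR adjusted p of 0.0532. For Lss the log2 difference was 0.62 (edgeR adjusted p = 0.0564) and for Msmo1 it was 0.61 (edgeR adjusted p = 0.0978). Dhcr7 and Insig2 went the other way, both libraries lying below the other 4, with log2 differences of -0.30 and -0.32 (edgeR adjusted p = 0.301 and 0.344). The share of all genes with that order was not computed. Hmgcs1 (log2 0.21, edgeR adjusted p = 0.565) did not separate the libraries, since DE680 was its highest. For Sc5d, Stard4 and Abcg1 the log2 differences were -0.30, -0.27 and -0.35 (edgeR adjusted p = 0.322, 0.327 and 0.394). The count of members called higher was 0 without the genotype term and 5 without DE680. The 5 are not set against the share of all genes called in that fit, so they only describe it. Without DE685 or DE684 a single library with Y-linked transcripts is left and is assumed to vary like the others, so only an effect size is given. The log2 difference of Hsd17b7 in those fits was 0.79 and 0.92.

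**Figure D5:**
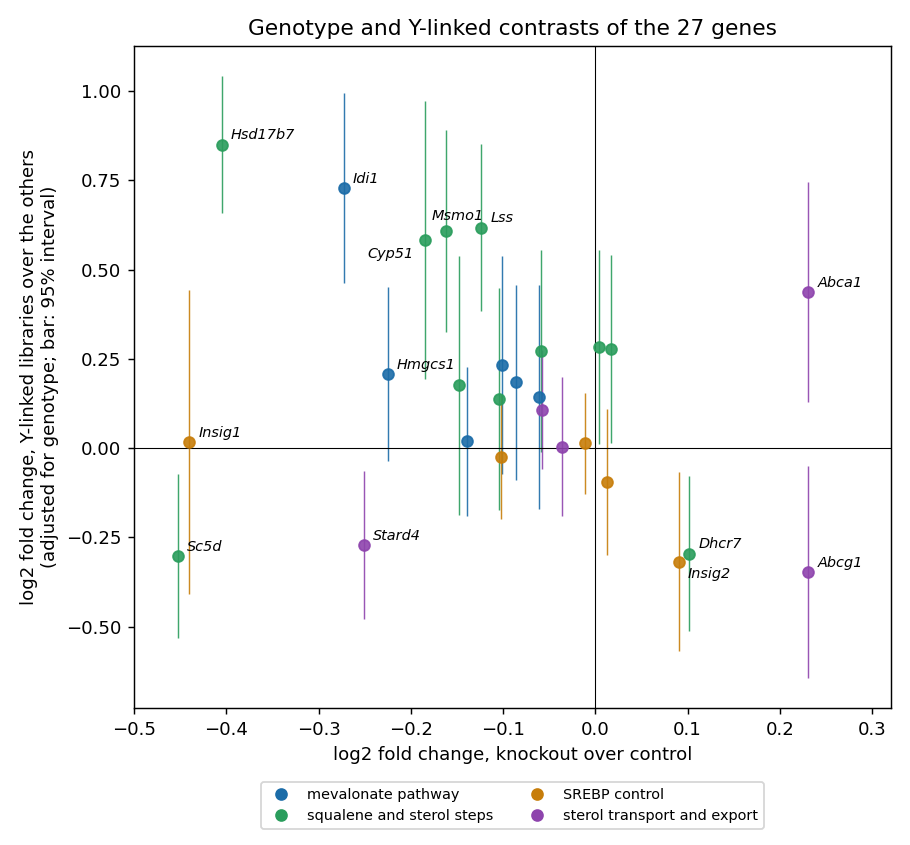
Log2 difference of each member between libraries with and without Y-linked transcripts, with its 95% interval, plotted against its log2 change between knockout and control. Enzymes such as Hsd17b7 and Idi1 sit at the upper left, with a positive difference on one axis and a negative one on the other.

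Levels of some cell type markers also differed between these library sets. Summed suprabasal markers (7 of 7 tested) ran from 25465 to 34518 CPM in the libraries with Y-linked transcripts and from 18219 to 24877 CPM in the others, and Krt1 was called higher there (log2 1.07, edgeR adjusted p = 0.035). Of these 7 markers, 4 had positive and 3 negative estimates, the negative ones being Ivl (-0.21), Sbsn (-0.08) and Krtdap (-0.05). Summed immune markers ran from 20.5 to 41.2 CPM against 61.1 to 101 CPM, and 2 of the 5 tested, Cd74 and Csf1r, were called lower. Of the 10 sebaceous gland markers, Elovl3 was called higher and Awat2 lower. The 5 fibroblast markers tested had 5 positive estimates (median 0.75), with 0 called by edgeR and 2 at an unadjusted p under 0.05. Summed fibroblast markers overlapped, at 79.1 to 129 CPM against 37.4 to 142 CPM. Over all genes in this comparison, 49.3% had positive estimates and 4.63% were higher at an unadjusted p under 0.05. The part of these cell types in the levels of the sterol enzymes was not tested.

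Between the genotypes, the suprabasal markers had 7 of 7 estimates below 0 (median -0.28, 0 called by edgeR, 3 at an unadjusted p under 0.05), with sums of 18219 to 25465 CPM in the knockout and 20554 to 34518 CPM in the control. Basal markers summed to 29154 to 33182 CPM in the knockout and 25749 to 30678 CPM in the control, and sebaceous markers to 7273 to 8314 and 7481 to 8664 CPM. Among 6 fibroblast markers Dcn was called higher (log2 1.90, edgeR adjusted p = 0.00782), while Lum stayed under 1 CPM in every library. Of the 5 tested, 2 had positive estimates and 3 negative ones (the collagen genes Col1a1, Col1a2 and Col3a1, at -0.38, -0.42 and -0.54), with a median of -0.38. Melanocyte markers summed to 62.9 to 100.3 CPM against 42.0 to 67.9 CPM, with 5 of 5 estimates positive, 0 called by edgeR and 2 at an unadjusted p under 0.05. Immune markers summed to 41.2 to 101 CPM against 20.5 to 83.3 CPM, with 5 of 5 tested estimates positive (median 0.63), 0 called by edgeR and 0 at an unadjusted p under 0.05. Endothelial markers (at most 5.08 CPM summed) and adipocyte markers (at most 3.09 CPM summed) were near 0. Over all genes, 19.0% passed an unadjusted p of 0.05 and 50.7% had estimates below 0. Whether the marker differences bear on the sterol genes was not tested.

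Of 8 genes for lipoprotein uptake tested, 1 was called: Scarb1, the high-density lipoprotein receptor, on chromosome 5. It had 14.2, 17.1 and 18.7 CPM in the knockout and 10.5, 10.5 and 9.63 CPM in the control. All knockout libraries lay above all controls, with means of 16.7 ± 2.24 and 10.2 ± 0.508 CPM. Over all genes, 1.60% were called and the groups did not overlap for 25.6%. The log2 change was 0.71 with an SE of 0.13 (edgeR adjusted p = 0.0414). The other 7 were not called, and 4 of the 8 estimates were positive.

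Of 5 other synthesis enzymes tested, 0 were called by edgeR and 0 passed an unadjusted p of 0.05. Over all genes, edgeR called 1.60%, and 19.0% passed an unadjusted p of 0.05. Of 12 genes of isoprenoid branches, 0 were called and 1 passed an unadjusted p of 0.05, and Pdss1, for the tail of ubiquinone, had the largest change (log2 -0.43, edgeR adjusted p = 0.360). Of 12 genes for processing of the sterol-sensing factors and sterol-regulated degradation, 0 were called and 3 passed an unadjusted p of 0.05. Mbtps2, the protease that makes the final cut in the Golgi, had 30.4, 30.4 and 29.8 CPM in the knockout and 34.3, 38.7 and 37.2 CPM in the control. Its groups did not overlap, as for 25.6% of all genes, and the log2 change of -0.28 missed the threshold (edgeR adjusted p = 0.109).

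Of 13 intracellular carriers and esterification genes, 0 were called and 4 passed an unadjusted p of 0.05, against 19.0% of all genes. Gramd1b, which moves cholesterol from the plasma membrane to the endoplasmic reticulum, had 3.43, 3.12 and 5.17 CPM in the knockout and 1.69, 1.49 and 1.19 CPM in the control. The groups did not overlap, as for 25.6% of all genes, and the log2 change of 1.43 (SE 0.28) missed the threshold (edgeR adjusted p = 0.0563). Of 13 liver X receptor, oxysterol and efflux genes, 0 were called and 4 passed an unadjusted p of 0.05, against 19.0% of all genes. Of these 13, 11 had positive estimates, with a median of 0.13, where 50.7% of all genes lay below 0. Hsd3b7, an enzyme of oxysterol and bile acid metabolism, had the largest change, at 19.5 ± 2.28 against 12.9 ± 2.51 CPM (log2 0.59, edgeR adjusted p = 0.111). Sult2b1, which makes cholesterol sulfate in cornifying cells, had a log2 change of -0.02 (edgeR adjusted p = 0.965).

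Hedgehog genes, among them those of the sterol-binding proteins Smo and Ptch1, differed in the same libraries. Gli1, a target of the pathway, was higher in the knockout by 2.93 on the log2 scale (edgeR adjusted p = 1.77e-05) and the receptor gene Ptch1 by 1.58 (adjusted p = 0.00228). Smo, the sterol-binding transducer, was at 159 ± 4.18 against 118 ± 0.673 CPM, a log2 change of 0.43 (edgeR adjusted p = 0.00883). Gpr161 itself had a log2 change of -0.13 (edgeR adjusted p = 0.553). Counts over a whole gene include exons outside a floxed part, so this value does not check the labels.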

How the data were processed

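RNA from tail keratinocytes (3 knockout, 3 control libraries) was measured by stranded, polyadenylated RNA sequencing, per the labels. The files the authors deposited hold estimated counts and, separately, a normalized signal, which was the count multiplied by a factor per library with 0.001 added, to within 0.0556 in every value. Alignments were sorted and had their duplicates marked, per the file headers. The submitters' processing notes name mm10, bcl2fastq 2.20, cutadapt 1.18, STAR 2.7.0f and Partek, without roles; whether counting used the strand is not given in the sources used here.

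Estimated counts (53.0% to 57.7% exactly whole, with no tolerance) were rounded, filtered with filterByExpr (minimum count 10) and fitted with edgeR 4.0.16 (R 4.3.3): TMM factors (0.975 to 1.03), glmQLFit and glmQLFTest, genotype as the only term. Standard errors and 95% intervals come from the log2 change and its F statistic. No library was a copy of another (chi-square over degrees of freedom of pairs in a group, 12.2 to 39.9). Intervals and counts cover these libraries only, and depth is the library total.

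The members and all gene lists were chosen with earlier results of these data known, so no list was tested. Every member is named; from each other sterol or Hedgehog list, genes with an adjusted p under 0.05 and the gene with the largest change at a mean of at least 1 CPM are named; marker lists are given as counts and sums, with called markers named. Some genes that this rule names are not reported here. Srebf1, Scap and other members sharing exon bases with another gene numbered 10, and none had a pseudogene named after it in GENCODE M21, whose coordinates equalled those of the table for all 27. Y-linked transcripts were summed over 4 Y-linked genes, and the comparison of libraries by them was added after seeing the data. Alternatives used DESeq2 1.42.0, limma 3.58.1, other scalings and filters, and left-out libraries. The edgeR procedure was tested on simulated data.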

Additional observations from a re-analysis of the deposited data

How the results depend on the processing

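No paired analysis was possible because the columns carry no replicate numbers and cannot be tied to numbered samples, so a replicate block was not run. Across scalings, filters, tools and left-out libraries the count of members called stayed at 0, except for 1 (Sc5d, lower) with DESeq2 and 1 (Hsd17b7, lower) with a term for Y-linked transcripts. Over all genes the count of 247 became 872 with DESeq2, 409 with that term, 87 in the 4 libraries without Y-linked transcripts (an alternative chosen after seeing the data, which uses fewer samples), and 69 (without DE688) to 121 (without DE684) when single libraries were left out. Members called in the comparison by Y-linked transcripts went from 1 to 3 without the filter, 4 with DESeq2 and 0 without the genotype term. The count was 3 with limma on the authors' values at either pseudocount (1 or 0.1). In leave-one-out fits that kept both libraries with Y-linked transcripts, it ran from 1 to 5. For all genes there, 71 became 116, 375 (DESeq2), 112 (pseudocount 0.1), 5 (no genotype term) and 8 to 104 (leave-one-out). Where not stated, the cause was not tested.

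Apart from fits with a library left out, only Scap and Srebf1 changed sign. Scap was 0.0064 with upper-quartile factors, and Srebf1 was -0.032 in the 4 libraries without Y-linked transcripts. Leave-one-out fits also reversed members further from 0 in the main fit, such as Msmo1 (-0.16) and Sqle (-0.15). With 1 library left out, the log2 change ran from -0.37 to 0.10 for Lss, -0.17 to 0.037 for Tm7sf2, -0.033 to 0.019 for Scap, -0.12 to 0.14 for Nsdhl, -0.14 to 0.10 for Ebp, -0.0042 to 0.21 for Dhcr7, -0.041 to 0.10 for Srebf1, -0.19 to 0.058 for Pmvk, -0.24 to 0.0036 for Mvd and -0.20 to 0.0086 for Fdps. It ran from -0.22 to 0.025 for Fdft1, -0.29 to 0.0051 for Sqle, -0.47 to 0.0010 for Msmo1, -0.050 to 0.25 for Insig2 and -0.088 to 0.039 for Npc1. The other 12 members kept their sign under all 16 alternatives. Each of these genes had at least 256 counts in each library; how far depth and the spread between libraries set the width of the intervals was not tested.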
